A study of Homo sapiens with 38 samples.

Results

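The comparison set H3K27ac regions that K562 CUT&Tag gave with the antibody Abcam-ab177178 against those that it gave with Abcam-ab4729. The members were the regions called in both benchmark libraries of one antibody and in neither library of the other. Peaks of the 4 lists that shared at least 1 bp were merged, separately for the MACS2 lists and for the SEACR lists. With MACS2, 4463 of 43341 merged regions (10.3%) were ab177178-only and 454 (1.05%) were ab4729-only. With SEACR, 2082 of 17530 regions (11.9%) were ab177178-only and 276 (1.57%) were ab4729-only. The rule sets these counts, so they describe the lists and were not tested.

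The study profiled histone marks in K562, an established human leukemia line with erythroid features, in 38 libraries, to tune CUT&Tag for H3K27ac. Each antibody had 2 benchmark libraries, all from untreated K562 cells, at a dilution of 1:100, with 15 PCR cycles, SDS-based DNA extraction and no trichostatin A (TSA, a histone deacetylase inhibitor). Every library came from one cell line, ab177178 is a monoclonal and ab4729 a polyclonal antibody, and the study describes the benchmark replicates as biological, without saying in the labels whether they were separate cultures. The other libraries used here were 2 benchmark libraries of another H3K27ac antibody (Diagenode, at 1:50), 2 of an H3K27me3 antibody (CST-9733, at 1:100), and 6 pairs of single ab177178 and ab4729 libraries made under other conditions.

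Acetylation of lysine 27 on histone H3 is placed by the acetyltransferases p300 and CBP, removed by histone deacetylases, and marks active promoters and active enhancers. H3K27me3, placed on the same lysine by the Polycomb complex PRC2, marks repressed genes and cannot share the residue with acetylation. In CUT&Tag the antibody tethers the Tn5 transposase to chromatin, and the enzyme inserts sequencing adapters into nearby DNA. GATA factors bind many enhancers of erythroid cells, while most promoters of broadly expressed genes are rich in G, C and CpG.

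The sequences at the summits of the highest-ranked members differed in base composition, and the first 3 regions of each antibody in rank order are shown for that reason. Rank was the lower of the 2 replicate values of −log10 q among MACS2 regions that SEACR called for the same antibody alone. Each sequence is 250 bases of the plus strand of GRCh37 around the summit, and capitals mark matches to AGATAA (a word of GATA factors), to TGANTCA (a word of AP-1), to CCGGAA (of ETS factors), to GGGCGG (the box of Sp1 and its relatives), to CACGTG (an E-box) or to TGACGTCA (CRE) on either strand.
COL18A1, ab177178-only, chr21:46862608-46862857: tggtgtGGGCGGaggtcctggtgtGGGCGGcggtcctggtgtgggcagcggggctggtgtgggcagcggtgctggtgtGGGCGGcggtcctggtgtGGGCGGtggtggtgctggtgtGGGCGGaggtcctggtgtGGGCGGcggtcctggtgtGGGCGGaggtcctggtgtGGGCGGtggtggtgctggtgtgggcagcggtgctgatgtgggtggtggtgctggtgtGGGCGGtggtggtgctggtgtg
NPM3, ab177178-only, chr10:103542756-103543005: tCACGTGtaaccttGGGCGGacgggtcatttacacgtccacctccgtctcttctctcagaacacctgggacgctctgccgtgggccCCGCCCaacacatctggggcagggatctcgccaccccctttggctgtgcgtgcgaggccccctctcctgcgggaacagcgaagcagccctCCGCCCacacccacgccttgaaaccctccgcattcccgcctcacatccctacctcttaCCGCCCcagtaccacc
CEP72, ab177178-only, chr5:657702-657951: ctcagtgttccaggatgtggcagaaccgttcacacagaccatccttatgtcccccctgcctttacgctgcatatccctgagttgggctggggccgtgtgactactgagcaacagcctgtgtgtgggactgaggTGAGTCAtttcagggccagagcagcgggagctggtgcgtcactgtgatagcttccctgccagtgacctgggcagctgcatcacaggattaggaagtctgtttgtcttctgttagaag
CYP2A7, ab4729-only, chr19:41403207-41403456: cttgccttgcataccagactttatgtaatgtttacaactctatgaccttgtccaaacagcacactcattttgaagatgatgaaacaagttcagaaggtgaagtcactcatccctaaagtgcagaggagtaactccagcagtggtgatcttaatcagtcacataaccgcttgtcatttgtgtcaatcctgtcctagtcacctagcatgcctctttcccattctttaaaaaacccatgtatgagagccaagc
EDEM1, ab4729-only, chr3:5606781-5607030: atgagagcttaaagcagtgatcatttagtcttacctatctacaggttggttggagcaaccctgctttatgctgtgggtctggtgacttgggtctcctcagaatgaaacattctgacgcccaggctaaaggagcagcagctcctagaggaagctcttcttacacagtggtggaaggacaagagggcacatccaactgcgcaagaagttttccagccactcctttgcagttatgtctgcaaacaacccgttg
MRPS27, ab4729-only, chr5:71577836-71578085: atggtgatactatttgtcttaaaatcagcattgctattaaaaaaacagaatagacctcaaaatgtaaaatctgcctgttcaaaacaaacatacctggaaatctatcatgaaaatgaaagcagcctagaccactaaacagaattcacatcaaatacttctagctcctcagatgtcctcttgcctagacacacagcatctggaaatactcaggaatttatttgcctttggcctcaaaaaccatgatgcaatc
The ab177178 sequences had a GC content of 72.4%, 64.8% and 55.6%, and those of ab4729 42.0%, 48.8% and 36.0%. GGGCGG matched 9 times in the sequence near COL18A1 and 4 times in that of NPM3, where CACGTG matched 1 time, TGANTCA matched 1 time near CEP72, and none of the 6 motifs matched in the ab4729 sequences. The sequence near COL18A1 was a tandem repeat: the word GGTGTGGGC occurred 12 times in it and 24 times in the 2277 bases of the region. How reads were placed in this repeat was not tested.

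The libraries did not enter with the same depth. The MACS2 lists held 34897 and 34009 peaks for ab177178 and 21317 and 29019 for ab4729, and the SEACR lists 15420, 15614, 14457 and 10930 in the same order. The fold of a MACS2 peak is the fragment pileup at its summit over a genome-wide background, each with 1 added, and its steps return that background as 0.680 and 0.674 fragments per base for ab177178 and 0.375 and 0.455 for ab4729. A peak thus needed a pileup of 8 fragments with ab177178 and of 7 with ab4729. With 2 libraries against 2, an exact two-sided permutation test cannot go below p = 0.33, which the peak numbers and the backgrounds reached. Depth differed between the antibodies in the same direction as the number of regions, and their effects on that number cannot be told apart in the full lists.

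Most merged regions were shared or fell in a single library. With MACS2, 15070 regions were called in all 4 libraries, 6275 in 3, 2459 in 1 library of each antibody and 14620 in a single library. Among regions called in 3 libraries, 4950 lacked ab4729 replicate 1 alone, the library with the fewest MACS2 peaks. With SEACR, 9136 regions were called in all 4 libraries, 2199 in 3, 531 in 1 of each antibody and 3306 in a single library. When every list was cut to the length of the shortest by rank, the 2 sets came closer, to 1478 and 875 regions with MACS2 and to 785 and 666 with SEACR. Leaving out a library in turn gave 5157 to 10781 ab177178-only and 785 to 3891 ab4729-only MACS2 regions, with the highest values without ab177178 replicate 2 and without ab4729 replicate 1. For SEACR it gave 2490 to 3624 and 393 to 1270 regions, highest without ab4729 replicate 1 and without ab4729 replicate 2.

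**Figure D1:**
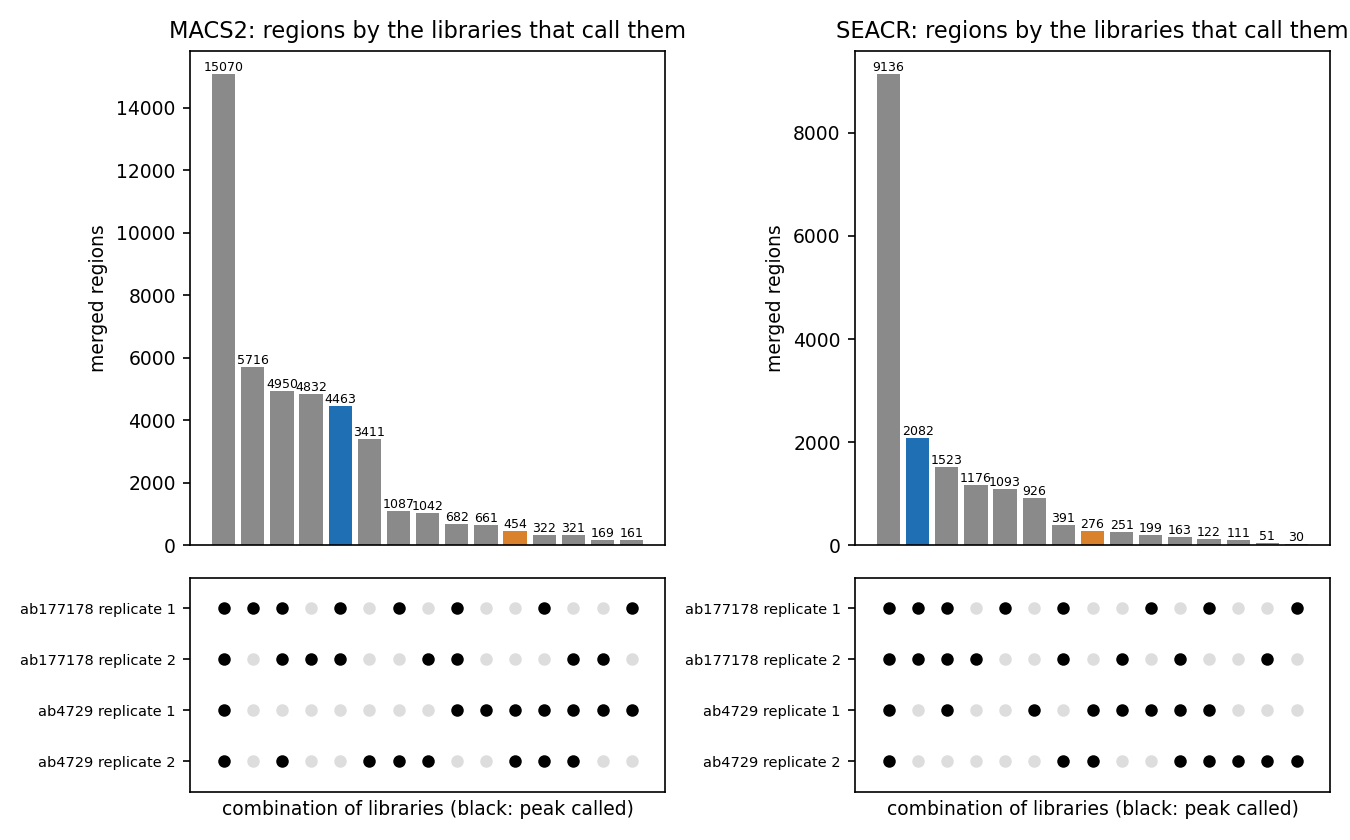
Number of merged regions (vertical axis) for each combination of the 4 libraries, MACS2 left and SEACR right; black dots below a bar mark the libraries that call a peak, blue bars are ab177178-only and orange bars ab4729-only regions. The blue bars stand at 4463 and 2082 regions and the orange ones at 454 and 276, below the 15070 and 9136 regions of all 4 libraries.

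The members were lower than the regions called in all 4 libraries. In ab177178-only MACS2 regions the median fold was 8.33 and 8.36 in the 2 ab177178 libraries, against 20.2 and 19.7 in regions of all 4 libraries. In ab4729-only MACS2 regions it was 8.00 and 9.62 in the 2 ab4729 libraries, against 12.4 and 17.9. Regions of 3 libraries had medians of 10.1 and 10.2 with ab177178 and, like the ab4729-only regions, of 8.00 and 9.62 with ab4729. The folds of ab177178-only regions ran from 5.36 to 31.5 and from 5.38 to 25.7, and those of ab4729-only regions from 5.82 to 19.6 and from 5.50 to 28.2. The lower ends are the lowest folds that the lists hold, since a region just under the threshold has no entry, and a fold of the other antibody is therefore not known. A −log10 q of at least 10 was reached by 68.2% and 65.5% of the ab177178-only regions and by 46.0% and 77.3% of the ab4729-only regions. In SEACR members the median of the maximum coverage was 18 and 17 fragments with ab177178 (42 and 41 in regions of all 4 libraries) and 13 and 22 with ab4729 (19 and 31). A peak of the other antibody lay within 1 kb of 20.4% of the ab177178-only and 22.2% of the ab4729-only MACS2 regions, and within 5 kb of 56.0% and 52.9%.

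The antibody-only regions of ab177178 lay at promoters more often than those of ab4729. A promoter was the stretch of 1.5 kb either side of any annotated transcript start. Of the ab177178-only MACS2 regions 43.4% touched one (1939 of 4463, 95% Clopper-Pearson interval 42.0% to 44.9%), and of the ab4729-only regions 20.5% did (93 of 454, 16.9% to 24.5%). With SEACR, whose regions are wider, the shares were 71.6% (69.6% to 73.5%) and 28.3% (23% to 34%). The intervals cover counting error over regions and not the spread between libraries. Regions of all 4 libraries touched promoters in 67.9% (MACS2) and 82.5% (SEACR) of cases and all merged regions in 48.1% and 70.8%, so with MACS2 both antibody-only sets were below the whole. ab177178-only regions stayed above ab4729-only regions when lists were cut to equal length (50.9% against 27% with MACS2, 79.0% against 36.3% with SEACR). With windows around the outermost start of each gene alone, the MACS2 shares fell to 19.9% and 12.3%, and the SEACR shares to 50.7% and 14.5%.

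Over all regions, promoters included, the ab4729-only set lay farther from coding starts. Introns outside promoters held the midpoint of 50.7% of the ab4729-only and 40.9% of the ab177178-only MACS2 regions, and intergenic sequence that of 24.7% and 9.16%. The median distance to the nearest start of a protein-coding transcript was 14.3 kb for ab4729-only and 2.91 kb for ab177178-only MACS2 regions. Starts were more than 50 kb away for 23.3% of ab4729-only regions (106 of 454) and 6.88% of ab177178-only regions (307 of 4463), against 10.2% of regions of all 4 libraries. With SEACR those shares were 27.5% and 5.81%.

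**Figure D2:**
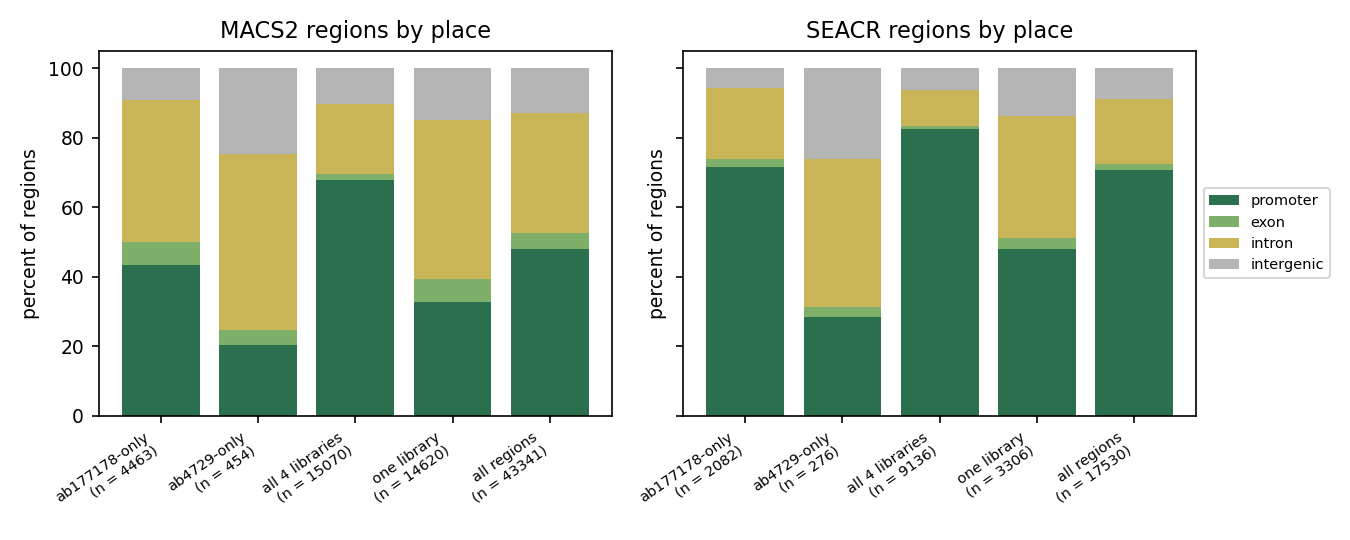
Percent of merged regions (vertical axis) at a promoter or else, by midpoint, in an exon, an intron or between genes, for the antibody-only sets, regions of all 4 libraries, of a single library and all regions; n is the number of regions. The promoter part of ab4729-only bars is the lowest in both panels, at 20.5% and 28.3%.

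Widths of the antibody-only sets were close in the full lists. The median width was 698 bp for ab177178-only and 678 bp for ab4729-only MACS2 regions, with quartiles of 518.5 to 962 bp and 517 to 964 bp. Regions of all 4 libraries were wider, with a median of 1859 bp. With SEACR the medians were 3809 and 3742 bp, against 5370 bp. At equal list length the ab177178-only medians were above those of ab4729-only, at 954 and 798 bp (MACS2) and 5156 and 3600.5 bp (SEACR).

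Base composition differed between the sets at promoters and away from them. In the 300 bases around the summit of the highest peak, median GC content was 57.7% in ab177178-only and 47.3% in ab4729-only MACS2 regions, beside 56.7% in all regions and 60.7% in regions of all 4 libraries. At promoters alone the medians were 59.7% and 49.7%, and away from promoters 55.7% and 46.7%. A GC content of at least 60% was found in 39.8% of the ab177178-only and 9.25% of the ab4729-only regions. CpG stood at a median of 2.00 per 100 bases in ab177178-only regions, 1.00 in ab4729-only regions and 4.33 in regions of all 4 libraries.

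The GATA word was commoner in the ab4729-only set and the GC box in the ab177178-only set. AGATAA, on either strand, was found in 23.1% of ab4729-only, 10.6% of ab177178-only and 13.7% of all MACS2 regions, in windows of the same length. Away from promoters the shares were 23.5%, 12.1% and 18.2%, and regions of all 4 libraries had it in 24.3%. GGGCGG was found in 10.1% of ab4729-only, 21.0% of ab177178-only and 26.8% of all regions. At promoters it was closer, in 23.7% of ab4729-only and 27.6% of ab177178-only regions, and away from promoters it was in 6.65% and 15.8%. The AP-1 word TGANTCA was closer, in 13.9% and 10.7%, against 10.7% of all regions. CCGGAA was in 3.74% of ab4729-only and 5.62% of ab177178-only regions, CACGTG in 2.64% and 5.92%, and TGACGTCA in 0 and 0.515%. None of these words contains another, and a match describes letters and no bound factor. The windows were not matched for base composition, which differed between the sets, and its part in these shares was not tested.

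By chromosome, ab177178-only regions were most frequent on chromosome 19, with 10.9% of the MACS2 set (487 regions) and 10.5% of the SEACR set (219 regions). That chromosome held 7.14% and 6.75% of all merged regions, and 3.74% and 2.54% of the ab4729-only sets. Chromosome 2 held 10.4% of the ab4729-only MACS2 regions (47 regions), 5.20% of the ab177178-only ones and 6.32% of all MACS2 regions. With SEACR it held 6.88%, 5.24% and 6.61%, so the ab4729-only share was close to that of all regions there. Chromosome 16 held 7.62% of ab177178-only, 4.19% of ab4729-only and 5.42% of all MACS2 regions, and 6.10%, 3.62% and 4.92% with SEACR.

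The other H3K27ac antibody shared more of the ab4729-only regions than of the ab177178-only regions. Peaks of the 2 Diagenode libraries overlapped 54.2% and 76.2% of the ab4729-only MACS2 regions and 13.5% and 28.2% of the ab177178-only ones. With SEACR regions and SEACR peaks the values were 73.9% and 85.5% against 15.9% and 27.7%. Regions of all 4 libraries were overlapped in 93.0% and 97.5% of cases with MACS2, and regions of a single library in 8.44% and 18.1%. No Diagenode peak touched 68.2% of the ab177178-only and 20.7% of the ab4729-only MACS2 regions. The contrast depended on the replicates that define the sets. For MACS2 regions under both Diagenode libraries, the shares were 9.86% (ab177178-only) and 51.1% (ab4729-only) with all 4 libraries, 11.9% and 19.1% without ab4729 replicate 1, and 32.6% and 29.2% without ab4729 replicate 2, where the order turned. At equal list length they were 32.7% and 65.9%. For SEACR regions they were 12.5% and 71.4%, 22.4% and 58.3% without ab4729 replicate 1, and 19.8% and 27.7% without ab4729 replicate 2. Without ab177178 replicate 2 the MACS2 share of ab177178-only regions was 6.28%.

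Overlap with H3K27me3 was low in both sets. MACS2 peaks of the 2 H3K27me3 libraries touched 5.00% and 3.99% of the ab177178-only and 1.76% and 2.42% of the ab4729-only MACS2 regions. They touched 8.87% and 5.33% of the wider regions of all 4 libraries and 6.70% and 4.77% of all regions. Of the SEACR members, 9.27% and 5.81% (ab177178-only) and 2.54% and 1.45% (ab4729-only) were touched.

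**Figure D3:**
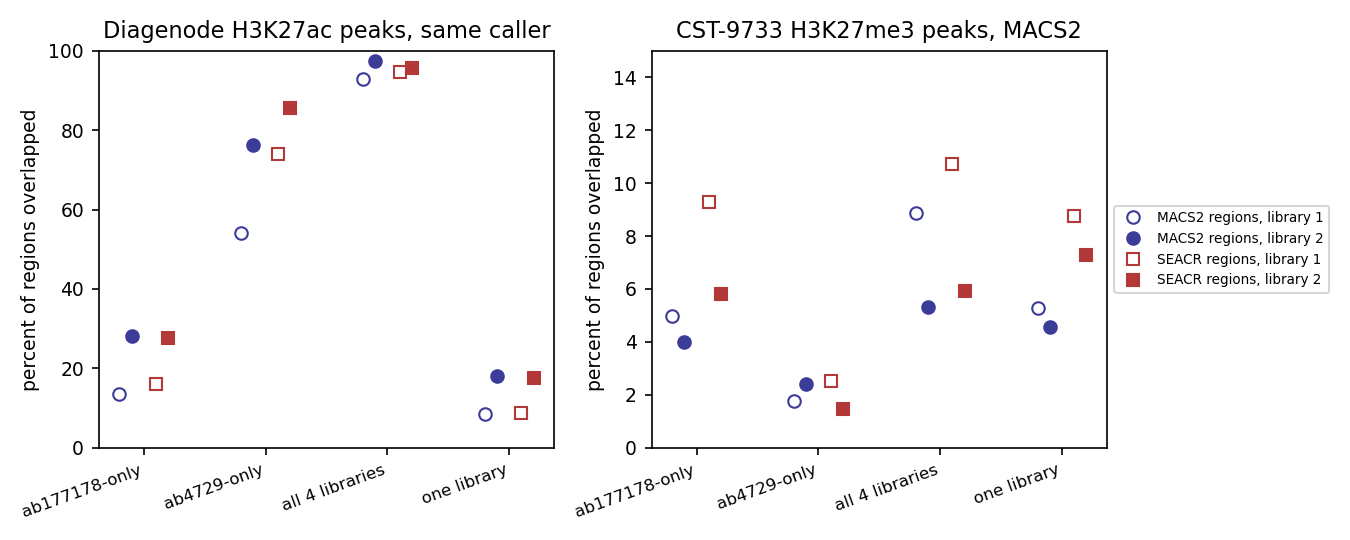
Percent of merged regions (vertical axis) overlapped by peaks of each of 2 Diagenode H3K27ac libraries (left, same caller as the regions) and of each of 2 CST-9733 H3K27me3 libraries (right, MACS2, axis to 15%), for 4 classes of region. Points of the ab4729-only class sit between 54.2% and 85.5% on the left and those of ab177178-only between 13.5% and 28.2%.

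Callers overlapped only in part on which regions belonged to an antibody. Of the ab177178-only MACS2 regions, 702 (15.7%) lay on an ab177178-only SEACR region, 1568 (35.1%) on a SEACR region of all 4 libraries and 1261 (28.3%) on no SEACR region. Of the ab4729-only MACS2 regions, 68 (15.0%) lay on an ab4729-only SEACR region, 109 (24%) on a SEACR region of all 4 libraries and 147 (32.4%) on none. In the sets held by both callers, promoters took 47.6% of the ab177178-only regions (334 of 702) and 17.6% of the ab4729-only ones (12 of 68).

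Named ab177178-only regions had folds of 13.7 to 31.5, and neither benchmark ab4729 library had a called peak in any of them. The highest-ranked lay in an intron 11.6 kb from the nearest start, of COL18A1 (the basement membrane collagen XVIII), at chr21:46861605-46863881. Its MACS2 fold was 31.5 and 22.7 in the 2 ab177178 libraries, and it was the tandem repeat printed above. Both H3K27me3 libraries and neither Diagenode library had a peak there. The region at chr10:103541865-103543751 covered the start of NPM3, a histone chaperone of the nucleoplasmin family, with a fold of 17.3 and 15.5, and Diagenode replicate 2 called it too. An intronic region at chr5:657426-658488, 1.86 kb from a start of the centrosomal protein gene CEP72, had a fold of 16.1 and 14.9. The region at chr12:132628928-132630224 served the start of NOC4L and that of DDX51, both with products in ribosome assembly, with a fold of 15.5 and 14.3. XRCC1, a scaffold of DNA single-strand break repair, had a promoter region with a fold of 14.3 and 17.9, which both Diagenode libraries called. MYO9B, an unconventional myosin, had one with a fold of 17.9 and 13.7, which neither called. The other 4 of the 10 lay nearest to SPTBN4, RNF223, SLC35F3 and REELD1. Of these 10 regions, 1 was called in both Diagenode libraries and 4 in neither. SEACR peaks of the 6 pairs under other conditions touched 6 of the 10 with ab177178 and 5 with ab4729.

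The 10 highest-ranked ab4729-only regions held by both callers were also called in both Diagenode libraries. Neither benchmark ab177178 library had a called peak in them. SEACR peaks of the 6 pairs under other conditions touched 2 of the 10 with ab177178 and 1 with ab4729. An intronic region 13.9 kb from a start of CYP2A7, a cytochrome P450 gene in a cluster of near-identical copies, had a fold of 18.9 and 27.5 at chr19:41402591-41404124. Near EDEM1, which acts in the degradation of misfolded glycoproteins, 2 regions ranked among the 10: an intergenic one 368 kb away with a fold of 19.6 and 17.9, and an intronic one 2.06 kb away at chr3:5238849-5240502 with 16.0 and 28.2. A region 4.70 kb from a start of MRPS27, a mitochondrial ribosomal protein gene, had a fold of 18.2 and 20.6 at chr5:71576667-71579783. The region at chr3:128614146-128615382, 1.11 kb from a start of ACAD9, a factor of complex I assembly, had a fold of 17.5 and 25.4. The start of TMBIM6, which encodes BAX inhibitor 1, was covered by a region with a fold of 15.3 and 17.9. Others lay nearest to IL1A (9.15 kb), USP34 (6.23 kb) and ITPR2 (25.9 kb). In rank order, 5 of the ab177178 regions and 2 of the ab4729 regions were at promoters.

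Many more protein-coding genes had promoter peaks with ab177178 alone than with ab4729 alone. A gene was ab177178-only when its promoters had a peak in both ab177178 libraries and in neither ab4729 library. By MACS2 394 of 20136 genes were (1.96%) and 16 were ab4729-only (0.0795%). By SEACR 1071 were ab177178-only (5.32%) and 14 ab4729-only (0.0695%). Promoters of 9018 genes by MACS2 and 7793 by SEACR were called in all 4 libraries. A region at a promoter did not always mean a gene of its own. Of 1632 ab177178-only MACS2 regions at coding promoters, 1116 (68.4%) touched a gene with a promoter peak in each of the 4 libraries. Of 51 ab4729-only regions 36 (70.6%) did. The peaks of a gene were taken over all its starts, the region itself included, so they could lie at different starts. ZNF-named genes, counted after their values were seen, made up 21 of the 394 and 54 of the 1071 ab177178-only genes. They were 515 of all 20136 genes, and among genes called in 3 libraries 68 of 1549 by MACS2 and 32 of 1123 by SEACR. None was among the ab4729-only genes, of which there were only 16 and 14.

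Among regions at coding promoters, the highest-ranked of ab177178 lay 0.140 kb from a start of ZMYND19, with a fold of 20.8 and 22.1. The splicing helicase gene DHX15 followed NPM3, with a fold of 15.5 and 15.5 at 1.25 kb from a start. SF3A2, a subunit of the U2 snRNP, had a fold of 20.2 and 14.3, and ANAPC2, the cullin subunit of the anaphase-promoting complex, 15.5 and 14.3. AHRR, the repressor of the aryl hydrocarbon receptor, had a fold of 19.6 and 14.3, and COX6B2, a subunit of cytochrome c oxidase, 14.9 and 14.9. Both H3K27me3 libraries had a peak on those of AHRR and COX6B2. C20orf96 and KCNMB3 completed the 10, and both Diagenode libraries called the regions of DHX15, SF3A2, C20orf96 and KCNMB3. For ab4729, ACAD9 and TMBIM6 were followed by LHX3, a homeobox gene of the pituitary, with a fold of 14.5 and 14.4. ERN1, the sensor IRE1 of the unfolded protein response, had 12.4 and 11.7, and AKR1C1, an aldo-keto reductase, 10.9 and 14.4. RD3L, PDE4DIP, INHBE, XPO6 and PALMD had folds of 9.45 to 14.4. Both Diagenode libraries called these 10 promoter regions except that of RD3L, which neither called. PDE4DIP lies in a duplicated part of chromosome 1, so its reads may be shared with copies.

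Lists of genes with known roles in K562 were mostly called in every library. Of 12 erythroid transcription factors 11 had a promoter peak in all 4 libraries with either caller, among them GATA1, GATA2, GFI1B and KLF1. Globin genes (8 of 10 by MACS2, 9 of 10 by SEACR), heme synthesis genes (9 and 8 of 10), cell cycle genes (12 and 11 of 12), JAK-STAT genes (12 of 13) and cytosolic ribosomal protein genes (12 of 12) did likewise. Red cell membrane genes were called in all 4 libraries for 8 and 7 of 12, PRC2 genes for 11 and 9 of 11, iron genes for 9 and 8 of 10, and oxidative phosphorylation genes for 10 of 12. HOX genes (5 of 14), megakaryocyte and platelet genes (1 and 2 of 12), and neuronal potassium channel genes (2 of 12) were mostly without a peak. Zinc finger genes of chromosome 19 were called in all 4 libraries for 3 of 12 by MACS2 and for none by SEACR. For AP-1 and immediate early genes it was 8 and 7 of 12, and for acetyltransferase and deacetylase genes 10 and 9 of 12. Marker genes of T cells, B cells and hepatocytes had a peak in 0 to 2 of 10, 0 to 2 of 8 and 0 to 1 of 10 genes in any of the 4 libraries.

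Few of the listed genes were members. Of 222 listed genes, 6 were ab177178-only by MACS2 and 8 by SEACR, where 1.96% and 5.32% of all coding genes were. None was ab4729-only by either caller, where 0.0795% and 0.0695% of all coding genes were, so these counts are near the background and are given as a description. By MACS2 they included ACO1 (the iron sensor IRP1, fold 10.1 and 11.9), FOSL2 (an AP-1 subunit, 9.52 and 8.36), HDAC8 (a deacetylase, 7.74 and 9.56), ZNF91 (a KRAB zinc finger, 8.93 and 7.77) and KLHL11. By SEACR they included FOS, the partner of JUN in AP-1, with a maximum coverage of 39 and 33 fragments, and CREBBP, the acetyltransferase CBP, with 29 and 36. KAT2A, another acetyltransferase, had 25 and 31, the kinase TYK2 36 and 28, and ITGA2B, the platelet integrin, 20 and 15. CD3D, a marker of T cells, was on the SEACR list too (13 and 14). None of the listed genes was ab177178-only by both callers. By MACS2, CREBBP had a promoter peak in all 4 libraries. FOS, KAT2A, TYK2, ITGA2B and CD3D had one in 3 libraries, with ab4729 replicate 2 among them.

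Of the 6 genes used for the study's qPCR controls, 4 had a promoter peak in all 4 libraries by either caller. ARHGAP22 had a MACS2 fold of 73.2 and 73.5 with ab177178 and of 69.8 and 96.9 with ab4729. ZMYND8 had 107 and 98.6 against 58.2 and 87.3, and SIGIRR 25.0 and 24.5 against 10.9 and 13.1, so in both the ab177178 values were above those of ab4729. These folds are as listed, with no adjustment between libraries. Over the 15070 regions called in all 4 libraries, the unadjusted median difference was 0.41 toward ab177178 on the log2 scale. KLHL11 was ab177178-only by MACS2, with a fold of 8.33 and 13.1, and had no SEACR peak. COX4I2 had no promoter peak in any list.

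Regions that all 4 libraries called allow a comparison of height that the rule did not use. Each library was centred on its median log2 fold over these 15070 regions, and limma gave 706 regions higher with ab177178 (4.68%) and 970 higher with ab4729 (6.44%) at an adjusted p under 0.05. Over the regions, the SD of the log2 difference was 0.44 between antibody means, 0.29 between the ab177178 replicates and 0.40 between the ab4729 replicates. The first value compares means of 2 libraries and the others single libraries, so replicate spread enters it less. At promoters 655 of 10225 regions (6.41%) were higher with ab177178 and 329 (3.22%) with ab4729. Away from promoters 51 of 4845 (1.05%) were higher with ab177178 and 641 (13.2%) with ab4729. The median difference, ab177178 minus ab4729, was 0.08 at promoters and −0.26 elsewhere on the log2 scale. Within each library, the median log2 fold at shared promoters exceeded that at other shared regions by 0.64 and 0.66 with ab177178 and by 0.26 and 0.35 with ab4729, and the antibodies did not overlap. The 2 Diagenode libraries stood between them at 0.47 and 0.45, over the regions that they called as well, where ab177178 had 0.62 and 0.58 and ab4729 0.25 and 0.27. Shared regions had to pass the threshold in every library. In ab4729 replicate 1 their median fold was 12.4 over a lowest of 5.82, and in ab177178 replicate 1 it was 20.2 over 5.36. The part of depth and of this threshold in the gaps was not tested. The calls depended on the centring: without it the median over all regions moved from −0.02 to 0.41, and 353 regions were higher with ab177178 and 31 with ab4729. With quantile normalization they were 95 and 242, of which 86 and 88 lay at promoters and 9 and 154 elsewhere. Without ab177178 replicate 1 the calls were 90 and 277, without ab177178 replicate 2 132 and 383, and without ab4729 replicate 2 1540 and 1601. At promoters the higher count with ab177178 was lost without ab177178 replicate 1 (80 and 98) and without ab177178 replicate 2 (119 and 120). The median at promoters stayed above that elsewhere in each of these settings, by 0.28 to 0.38.

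Among the shared regions past the threshold, the largest differences toward ab177178 were near ANKRD11, MSMO1, ZNF669, CIAO3 and AP3D1. ANKRD11, a chromatin regulator, had folds of 32.7 and 41.2 with ab177178 and of 8.00 and 8.93 with ab4729 (log2 difference 1.69, SE 0.23, limma adjusted p = 4.49e-05). MSMO1, a gene of sterol synthesis with an intronic region at 2.6 kb, had 29.2 and 29.3 against 5.82 and 8.93 (1.59, SE 0.24). The promoter of CIAO3, of iron-sulfur protein assembly, had 29.8 and 32.3 against 8.00 and 9.62. ZNF669 was 10.9 kb from a region at the start of another transcript. Toward ab4729, GRK1, SLC29A3, RTF1 and BEST1 were near regions among the 5 largest differences. RTF1, a factor of transcription elongation associated with the Paf1 complex, had 8.93 and 8.36 against 30.5 and 33.7 (log2 difference −2.32, SE 0.23, limma adjusted p = 3.63e-07). That region covered an annotated transcript start of the gene, which need not be its outermost start. GRK1, the kinase of rhodopsin, had 10.1 and 9.56 against 58.2 and 31.6.

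**Figure D4:**
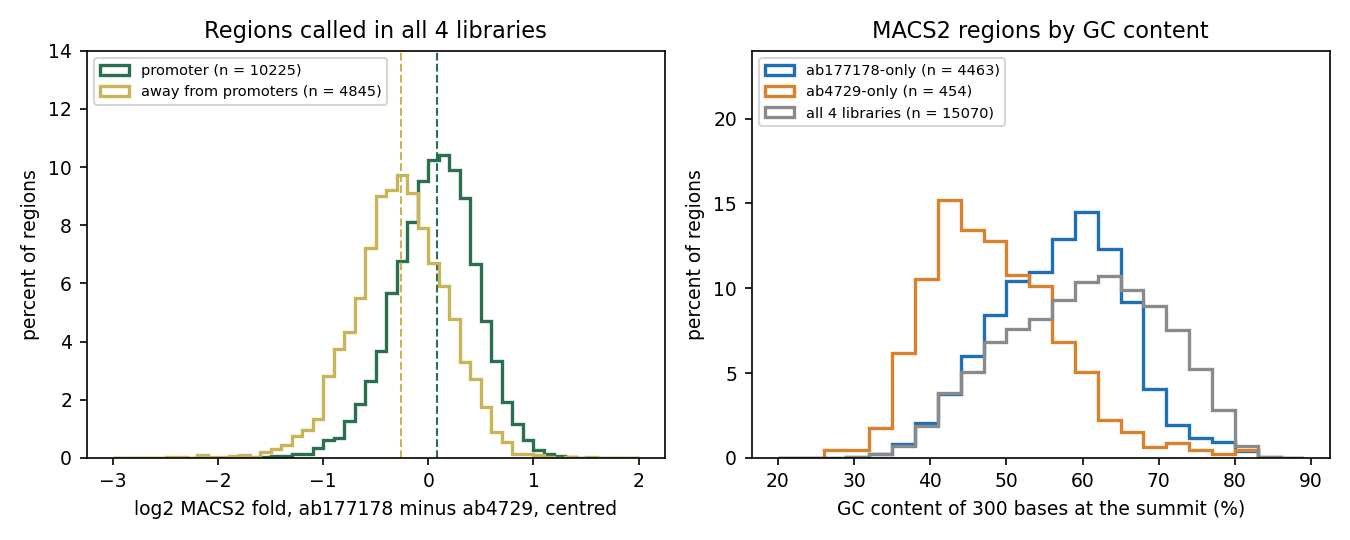
Left, percent of shared regions (vertical axis) by the log2 fold difference between antibodies, at promoters and elsewhere, with medians of 0.08 and −0.26 as dashed lines. Right, percent of MACS2 regions by GC content at the summit; ab4729-only regions centre on 47.3% and ab177178-only regions on 57.7%.

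In libraries that did not define the sets, no preference of either antibody for its own regions passed the test. The 6 held-out pairs, each of 1 ab177178 and 1 ab4729 library at 1:100, were a first pair, a pair with TSA, and pairs of 11 or 13 PCR cycles with SDS or column extraction. Preference was the percent of ab177178-only regions that a library's SEACR peaks hit, minus the percent of ab4729-only regions hit. For the SEACR regions, preference was higher in the ab177178 library in 1 of 6 pairs, with a mean difference of −1.55 points (range −11.1 to 13.3, exact two-sided sign-flip permutation p = 0.625, adjusted p = 1). For the MACS2 regions it was higher in 5 of 6 pairs, with a mean difference of 1.37 points (range −1.18 to 4.26, exact sign-flip p = 0.156, adjusted p = 0.938). Without the pair of 13 cycles with SDS the mean for the SEACR regions was 0.363 points, and without the pair with TSA −4.53 points (exact sign-flip p = 0.0625, the lowest that 5 pairs allow). Without the first pair the mean for the MACS2 regions was 0.795 points. Neither difference passed, which does not show that the antibodies act alike.

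The share of regions hit varied widely between pairs, as did the lengths of their lists. Per the study, the ab4729 library had more sequenced and more unique fragments in the first pair and in that with TSA. In the first pair its duplication rate was also higher. The part of these differences in the shares was not tested. In the first pair, 30.3% of the ab177178-only SEACR regions were hit by the ab177178 library (16661 peaks) and 32.3% by the ab4729 library (13427 peaks). Of the ab4729-only regions, 23.6% and 22.1% were. With TSA, the ab4729 library (21904 peaks) hit 27.3% of the ab177178-only and 37.7% of the ab4729-only regions, and the ab177178 library (7125 peaks) 6.20% and 3.26%. In the 4 pairs of 11 or 13 cycles, ab177178 libraries had 8161 to 10821 peaks and ab4729 libraries 4670 to 6644. There the ab177178 libraries hit 9.99% to 13.2% of the ab177178-only and 9.78% to 18.5% of the ab4729-only SEACR regions, and the ab4729 libraries 2.98% to 8.65% and 1.45% to 3.99%. In these 4 pairs, then, the longer ab177178 lists hit more of either set. For the MACS2 regions of ab177178, the first pair gave 16.7% and 13.3%, the pair with TSA 1.86% and 12.8%, and the other 4 pairs 2.33% to 6.09% and 0.448% to 0.963%. MACS2 lists of the first pair, of 10887 peaks for ab177178 and 25849 for ab4729, hit 6.77% and 16.6% of the ab177178-only and 5.07% and 17.0% of the ab4729-only MACS2 regions.

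In most held-out lists the promoter share was lower with ab177178 than with ab4729, a comparison added after the values were known and one that did not pass its test. Promoters took 52.1%, 54.0%, 54.2%, 64.0% and 66.2% of the ab177178 SEACR peaks in the 5 pairs without TSA, and 71.3%, 78.6%, 83.2%, 75.8% and 79.0% of the ab4729 peaks in the same order (first, 11 cycles SDS, 11 cycles column, 13 cycles SDS, 13 cycles column). The ab4729 library was higher in each of these 5 pairs, and the ab177178 library in the pair with TSA (63.8% against 46.8%). Over the 6 pairs the mean difference was −13.4 points (exact sign-flip p = 0.13), −12.2 points at equal list length (exact sign-flip p = 0.0625) and −19.5 points without the pair with TSA (exact sign-flip p = 0.0625, again the lowest that 5 pairs allow). In the benchmark SEACR lists the shares were 74.0% and 73.5% with ab177178 and 69.3% and 76.5% with ab4729, which overlapped. In the benchmark MACS2 lists they were 53.3% and 53.0% with ab177178 and 59.8% and 53.9% with ab4729, higher in both ab4729 libraries (exact permutation p = 0.33, the lowest that 2 against 2 allows). The height of shared promoters over other shared regions was also lower with ab177178 in most pairs: over the SEACR regions that both libraries of a pair called, its difference (ab177178 minus ab4729) was below 0 in 4 pairs, 0 in 1 and above 0 in the pair with TSA, with a mean of −0.20 on the log2 scale (exact sign-flip p = 0.13). In the benchmark SEACR lists that height was higher with ab177178, at 0.58 and 0.47 against 0.15 and 0.14 over regions of all 4 libraries, so the benchmark direction was not kept in the 4 pairs below 0. Depth, batch and conditions differ between the benchmark and the held-out libraries, and their part was not tested.

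**Figure D5:**
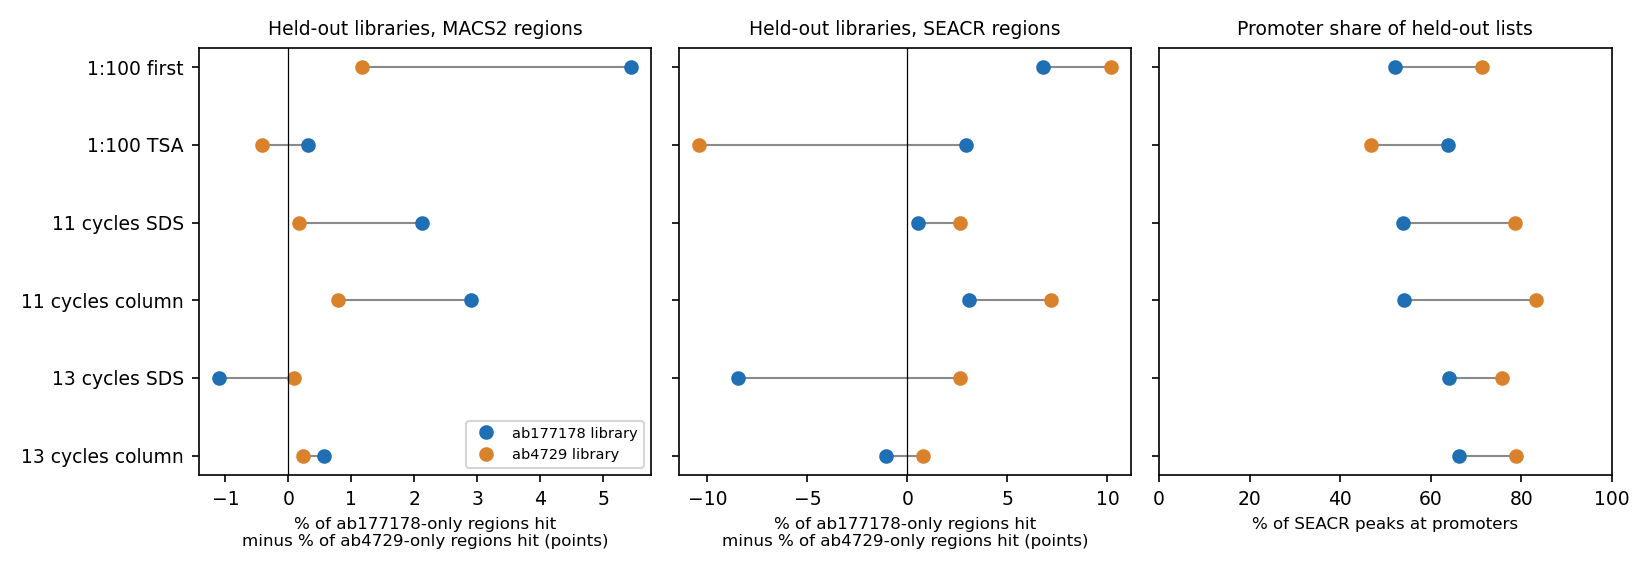
Held-out pairs (rows) with the ab177178 library in blue and the ab4729 library in orange: preference in points for MACS2 and SEACR antibody-only regions, and percent of SEACR peaks at promoters. Blue lies right of orange in 5 of 6 pairs in the left panel, and in 1 of 6 pairs in each of the others, the pair with TSA.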

How the data were processed

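Peak lists of single libraries were analysed, with no pooling of replicates. Upstream of the lists, per the paper and the submitters' notes, reads came from bcl2fastq, adapters were cut by Trim Galore (0.6.6), alignment to hg19 used Bowtie2 (2.2.9), and Picard (2.6.0) took out duplicates. SAMtools (1.3.1) and bedtools (2.25.0) are also named. MACS2, with a genome-wide background, and SEACR gave the peaks. In the deposited MACS2 lists the fold is a ratio of pileup to background, and the authors give −log10 p and −log10 q beside it. In the deposited SEACR lists the authors give the summed signal and the maximum coverage of each peak. The study's results name the stringent SEACR mode and its methods print another word, so the mode is open. The PCR and extraction lists had been downsampled to a shared depth, and peaks in blacklisted regions remain in the lists.

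Only autosomes and the sex chromosomes entered (175663 peaks in the 8 benchmark lists), and no peak ran past an end of GRCh37, the assembly that hg19 names. Genes came from GENCODE mapped to that assembly (64449 genes). Regions called in both libraries of an antibody and in no other were counted without a test. Held-out pairs were tested by exact two-sided sign flips, adjusted over 6 tests by Benjamini and Hochberg. Height at shared regions was tested with limma (3.58.1, R 4.3.3, trended eBayes, Benjamini-Hochberg) on log2 fold without a pseudocount. It offset the regions whose replicates had equal folds from a variance of 0. Tests were checked on simulated data. Alternatives were lists of equal length, stricter lists, other promoter windows and merging, other normalizations, and each replicate left out; Diagenode overlap, base composition and held-out promoter shares under them were added after seeing the data. Python 3.11.15 with numpy 2.4.6, pandas 2.3.3 and scipy 1.17.1 was used.

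Named genes are those at the 10 highest-ranked regions of each antibody held by both callers, at the 10 highest-ranked coding promoters of each, in the gene lists (members, and up to 4 examples by alphabet), at the 5 largest differences in each direction of shared regions, and of the qPCR controls. Regions on chromosome 8 are counted and not named. A few genes chosen by the rule are not reported here. The members and lists were chosen with earlier results of these data known. The share of repeat-masked bases was not computed, since the genome used here carries no masking.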

Additional observations from a re-analysis of the deposited data

Results flagged for a closer look

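In the pair with TSA the difference between antibodies went against that of the other pairs, in both measures below, and whether this pair differs from the others was not tested. Promoters took a share of the SEACR peaks that was 17.0 points higher in the ab177178 library than in the ab4729 library with TSA, and 11.9 to 29.0 points lower in the 5 pairs without TSA. The preference for SEACR antibody-only regions was 13.3 points higher in the ab177178 library with TSA, and 1.88 to 11.1 points lower in the other 5. The TSA lists were also the most unequal in length, with 7125 and 21904 peaks, and the part of that in either value was not tested.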

How the results depend on the processing

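Promoter shares were higher for ab177178-only than for ab4729-only regions with either caller under each alternative for which they were computed. They were not computed for a stricter list against a full list, for merging within 1000 bp, or for at least 50% coverage of a region. Counts of regions depended on the lists: a stricter list of one antibody against the full list of the other left 2203 and 187 (ab177178-only, ab4729-only) MACS2 and 90 and 26 SEACR regions, equal length 1478 and 875, and 785 and 666. A −log10 q of at least 10 left 261 ab4729-only regions, and the upper 50% by SEACR signal 1215 ab177178-only regions. Leaving out a replicate gave 5157 to 10781 and 785 to 3891 MACS2 and 2490 to 3624 and 393 to 1270 SEACR regions. The causes of these moves were not tested beyond the fewer peaks or libraries that each setting uses.

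Promoter shares of MACS2 ab177178-only regions were 19.9% (outermost start), 59.2% (window of 3 kb), 38.2% (midpoint), 50.9% (equal length) and 47.6% (−log10 q of at least 10), and 39.1% to 47.6% without a replicate. For MACS2 ab4729-only regions they were 12.3%, 30.8% and, at equal length, 27%, and 23.5% to 25.3% without a replicate. For SEACR ab177178-only regions they were 50.7%, 75.5%, 58.1% and 79.0%, 91.4% in the upper 50%, and 63.9% to 72.4% without a replicate. For SEACR ab4729-only regions they were 14.5%, 37.3%, 16.7%, 36.3% and 46.9%, and 30.2% to 32.1% without a replicate. Median widths at equal length were 954 and 798 bp (MACS2) and 5156 bp (SEACR ab177178-only), and 787 bp in both MACS2 sets when merged within 1000 bp. Median GC at equal length was 58.3% and 49.3%.

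Under both Diagenode libraries lay 32.7% and 65.9% (ab177178-only, ab4729-only) of MACS2 regions at equal length, 22.2% and 71.6% at a −log10 q of at least 10, and 6.28% to 32.6% and 19.1% to 53.6% without a replicate. For SEACR regions it was 24.7% and 79.3%, 76.4% and 97.4% in the upper 50%, and 8.83% to 22.4% and 27.7% to 72.4% without a replicate.

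For the held-out pairs, leaving out a pair gave −4.53 to 0.363 points (SEACR regions, positive without the pair of 13 cycles with SDS) and 0.795 to 1.88 points (MACS2 regions). Shared regions that differed in height numbered 384 without centring, 337 with quantile normalization, 989 without the intensity trend, and 367 to 3141 without a replicate. With the replicate number as a block they numbered 2126. The deviations of same-numbered libraries correlated at 0.00256, so the numbers were not taken to pair the libraries. With the block no library value could pass, since an exact sign-flip test over 2 replicate numbers goes no lower than p = 0.5. Lists hold no signal below the threshold, so absence from a list limits every count here.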
